A study of Mus musculus with 40 samples.

Results

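The genes described here are 10 markers of the endothelium, the cell layer that lines blood vessels and forms the wall of muscle capillaries. They were Flt1, Kdr, Tek and Tie1, which encode growth factor receptors, Eng, which encodes a co-receptor, Sox18, which encodes a transcription factor, Pecam1, Cdh5 and Emcn, which encode proteins of the cell surface and cell junctions, and Vwf, which encodes a secreted clotting protein. They were chosen by name: every probe whose platform annotation gave 1 of these gene symbols was taken, which returned 12 of the 25697 probes and 10 of the 16593 named genes. The names were chosen with earlier results of these data known, so the share called among them is a description and no test of the set. Flt1 and Pecam1 had 2 probes each, and the brighter probe of a gene is the one described unless the other is named.

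The samples were skeletal muscles of the thigh from 40 males of the strain C57BL/6J (the labels write C57BL\6), killed at 9 weeks of age, with 1 Illumina MouseRef-8 v2.0 array per animal. All dams and sons were genetically alike and untreated apart from their diet, which was either low fat and high in carbohydrate (LF) or high fat and low in carbohydrate (HF). Dams ate their diet before mating, through pregnancy and until weaning, and the sons were then put on LF or HF themselves. This gave 4 groups of 10 animals, named by the diet of the dam and then that of the son: LF-LF, LF-HF, HF-LF and HF-HF. The animals came from 12 cages, 6 for each diet of the dams, and 5 cages held sons of both diets.

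Endothelial cells respond to vascular endothelial growth factors, which bind the receptors encoded by Flt1 and Kdr, and to angiopoietins, which bind the receptor encoded by Tek, with the related receptor Tie1 beside it. Endoglin, the product of Eng, binds ligands of the bone morphogenetic protein family together with the receptor encoded by Acvrl1, and Cdh5 and Pecam1 hold neighbouring endothelial cells together. Muscle capillaries deliver oxygen, fatty acids and glucose to the fibres, and slow oxidative fibres are known to be surrounded by more capillaries than fast fibres. In RNA of whole muscle, a change in the number of endothelial cells and a change in the RNA of a gene per cell cannot be told apart.

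Sequence upstream of the transcription start was taken from RefSeq (GRCm38.p6). In it 6 of the 10 genes matched an entry (Eng, Emcn, Flt1, Kdr, Tek and Tie1). The 250 bases before the start were searched on both strands for AGGAAG, 1 form of the site bound by ETS factors. ETS factors are a family known to regulate endothelial genes. Shorter or other forms of the site were not searched. The letters AGGAAG or their reverse complement CTTCCT were present in 4 of these 6 windows, against 29.5% of all 32851 windows of the same length in the table. The windows of Eng, Emcn and Flt1 held 2 matches each and that of Tie1 held 1, with no overlap between matches, and those of Kdr and Tek held none. The letters AGATAA (reverse complement TTATCT), 1 form of the site bound by GATA factors, were in 0 of the 6 windows, against 9.99% of all windows. Shown are the windows of the 3 genes with an entry that rose with the sons' own high fat diet in sons of LF dams, and that of Tek, which did not, with AGGAAG or CTTCCT in capitals. The window of Tie1 is not shown. It held 1 match, and Tie1 was not called in that comparison (log2 change 0.11, adjusted p = 0.346 by limma). Whether the matches go with the response to diet was not tested. Eng lies on the plus strand at chr2:32646345-32646594, Emcn on the plus strand at chr3:137340828-137341077, Flt1 on the minus strand at chr5:147726012-147726261 and Tek on the plus strand at chr4:94739039-94739288. Each is written 5′ to 3′ on the strand of its gene, so that the last base lies just before the start.
Eng: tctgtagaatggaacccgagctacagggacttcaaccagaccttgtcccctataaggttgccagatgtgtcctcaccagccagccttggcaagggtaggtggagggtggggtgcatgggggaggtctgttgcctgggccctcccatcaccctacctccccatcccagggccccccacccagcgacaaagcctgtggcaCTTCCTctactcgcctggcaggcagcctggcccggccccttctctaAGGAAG
Emcn: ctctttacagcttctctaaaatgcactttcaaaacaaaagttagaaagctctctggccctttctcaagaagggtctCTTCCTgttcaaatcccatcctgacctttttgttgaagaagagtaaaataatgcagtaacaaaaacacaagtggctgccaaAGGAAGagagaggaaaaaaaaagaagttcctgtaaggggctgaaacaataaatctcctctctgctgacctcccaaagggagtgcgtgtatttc
Flt1: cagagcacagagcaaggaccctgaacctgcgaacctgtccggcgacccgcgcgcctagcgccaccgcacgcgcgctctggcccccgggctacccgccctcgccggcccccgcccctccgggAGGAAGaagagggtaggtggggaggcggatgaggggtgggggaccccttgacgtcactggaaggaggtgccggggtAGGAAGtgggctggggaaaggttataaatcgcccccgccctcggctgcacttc
Tek: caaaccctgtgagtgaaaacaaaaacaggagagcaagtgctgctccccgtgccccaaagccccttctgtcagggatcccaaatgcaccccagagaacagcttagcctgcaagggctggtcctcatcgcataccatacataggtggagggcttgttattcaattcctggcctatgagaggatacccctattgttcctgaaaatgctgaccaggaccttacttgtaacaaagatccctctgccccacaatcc

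Intensities are the deposited quantile-normalised values on a linear scale, without subtraction of background, so that fold changes of dim probes are compressed. The lowest was 47.2, the median 75.7 and the highest 32250.5, and the log2 values of any pair of arrays correlated at 0.97 or above. To be tested, a probe had to be brighter than the median probe of the same array on 20 or more of the 40 arrays, and of the 12467 probes that passed, 11 belonged to 9 of the 10 genes. The muscle genes Ckm, Acta1, Mb, Myh4, Des, Ttn, Tcap, Pygm and Eno3 all passed, and their summed intensity was between 161064 and 190506 in every array, so the defining genes of the labelled tissue were present. On the first principal component of the 13230 probes that were not tested, the arrays fell into 2 sets, with 17 arrays in set a and 23 in set b, and 28.1% of tested probes differed between them, so values within each set are given below. Set a held 2 LF-LF, 4 LF-HF, 6 HF-LF and 5 HF-HF arrays. Among the 10 genes the array sets differed for Pecam1, which was 0.16 lower in set b on the log2 scale (adjusted p = 0.0329), whereas its second probe differed by 0.02 (adjusted p = 0.78).

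Kdr, the receptor through which most signalling of vascular endothelial growth factor passes, could not be tested. Its only probe lay above the array median in 4 of 40 arrays and ranged from 61.8 to 83.3 over all arrays, with medians of 66.45 in LF-LF, 67.7 in LF-HF, 68.15 in HF-LF and 69.45 in HF-HF. These values lie near or below the median of all probes on the arrays, and no difference between groups was drawn from them. The brightest values of the other 9 genes exceeded their dimmest by 1.41-fold (Tek) to 2.06-fold (Pecam1) across the 40 arrays, and within groups the SD on the log2 scale was between 0.13 for Tek and 0.19 for Sox18.

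**Figure D1:**
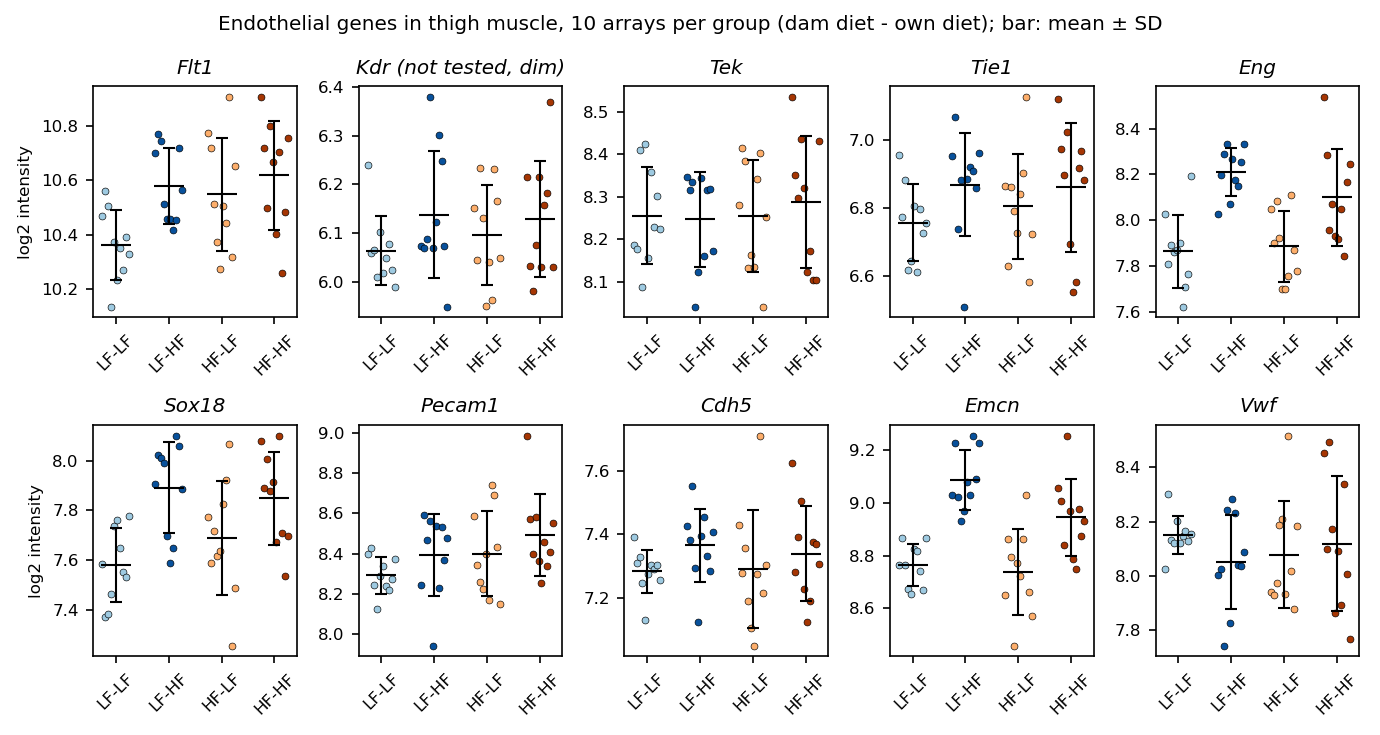
Log2 intensity of the main probe of each of the 10 genes (vertical axes, one scale per gene) in the 40 arrays, by group (horizontal axis, dam diet then own diet), with the mean and SD of 10 arrays as bars. All LF-HF arrays lie above all LF-LF arrays for Emcn, and Kdr stays between 61.8 and 83.3 in intensity.

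The effect of the post-weaning diet in sons of LF dams compared LF-HF with LF-LF. Emcn, Eng, Sox18 and Flt1 rose in the sons fed HF, by 25.0%, 27.0%, 24.0% and 16.3%, so that 4 of the 9 tested genes were called at an adjusted p below 0.05 and all 4 were higher. Of all tested probes 4.18% were called in this comparison and 2.4% were called higher. The median log2 change of the 9 genes was 0.11, against -0.01 over all 12467 probes. The remaining 5 genes, Tie1, Pecam1, Cdh5, Tek and Vwf, did not pass the test.

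Emcn encodes endomucin, a heavily glycosylated surface protein of capillary and venous endothelium. Its intensity ran from 403.3 to 466.7 in LF-LF (median 435.5) and from 488.1 to 611.4 in LF-HF (median 532.2). The lowest LF-HF array was thus above the highest LF-LF array, and Emcn was the only one of the 9 genes whose groups did not overlap here, as was the case for 24 (0.193%) of all 12467 tested probes in either direction. The log2 change was 0.32 ± 0.05 (SE, n = 10 per group, adjusted p = 0.000402 by limma), rank 22 of all probes by p. Within array set a it was 0.32 ± 0.11 (adjusted p = 0.608, 2 against 4 arrays) and within set b 0.31 ± 0.06 (adjusted p = 0.0147).

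Eng encodes endoglin, and its intensity ran from 197.1 to 292.2 in LF-LF (median 233.1) and from 260.5 to 322.8 in LF-HF (median 299.3). All 10 LF-HF arrays were above the LF-LF mean, and 6 of them above every LF-LF array, so the groups overlapped in part. The log2 change was 0.35 ± 0.06 (SE, n = 10, adjusted p = 0.00205 by limma), 0.25 ± 0.09 within set a (adjusted p = 0.618) and 0.37 ± 0.08 within set b (adjusted p = 0.0408).

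Sox18 encodes a transcription factor that acts in the development of blood and lymph vessels. Its intensity ran from 165.7 to 219.5 in LF-LF (median 189.75) and from 192.5 to 274.3 in LF-HF (median 247.2), and 7 of 10 LF-HF arrays exceeded every LF-LF array. The log2 change was 0.31 ± 0.07 (SE, n = 10, adjusted p = 0.0155 by limma), 0.27 ± 0.13 within set a (adjusted p = 0.659) and 0.30 ± 0.09 within set b (adjusted p = 0.114). The call was lost without cage 4 (0.31, adjusted p = 0.0783), without cage 8 (0.25, adjusted p = 0.0807) and without cage 11 (0.28, adjusted p = 0.148).

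Flt1 encodes a receptor that binds the growth factors VEGF-A, VEGF-B and PlGF with high affinity and has a soluble form that captures them. Its intensity ran from 1124.2 to 1509.2 in LF-LF (median 1315.65) and from 1367.4 to 1744.9 in LF-HF (median 1487.4), and 5 of 10 LF-HF arrays were above every LF-LF array. The log2 change was 0.22 ± 0.06 (SE, n = 10, adjusted p = 0.0396 by limma), and the dimmer second probe changed by 0.11 ± 0.05 (adjusted p = 0.281) with a range of 68.4 to 104.6 over all arrays. Of the 4 calls, this one was lost most often when arrays or cages were left out. Leaving out any 1 of LF-LF replicates 4, 6, 7, 8, 9 and 10 or of LF-HF replicates 1, 2, 3, 9 and 10 brought the adjusted p to between 0.0557 and 0.0818, and leaving out cage 4, 6, 11 or 14 to 0.285, 0.111, 0.221 and 0.102.

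The 5 genes that did not pass the test in sons of LF dams were the remaining receptors, the junction proteins and Vwf. Tie1 changed by 0.11 (95% interval -0.01 to 0.23, adjusted p = 0.346), Pecam1 by 0.10 (-0.04 to 0.24, adjusted p = 0.479) and Cdh5, which encodes VE-cadherin, by 0.08 (-0.01 to 0.18, adjusted p = 0.389). Tek, the angiopoietin receptor, changed by -0.01 (-0.12 to 0.10, adjusted p = 0.959) and Vwf, which encodes von Willebrand factor, by -0.10 (-0.22 to 0.02, adjusted p = 0.429), with 7 of 10 LF-HF arrays below the LF-LF mean. The upper bounds for Tek and Vwf lie below the measured change of each of the 4 genes that rose, whereas the bounds for Pecam1 and Tie1 reach past that of Flt1. Differences between genes were not tested. The intensities of these genes overlapped between the groups, as for Cdh5 with 140.1 to 168 in LF-LF and 139.6 to 187.7 in LF-HF.

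**Figure D2:**
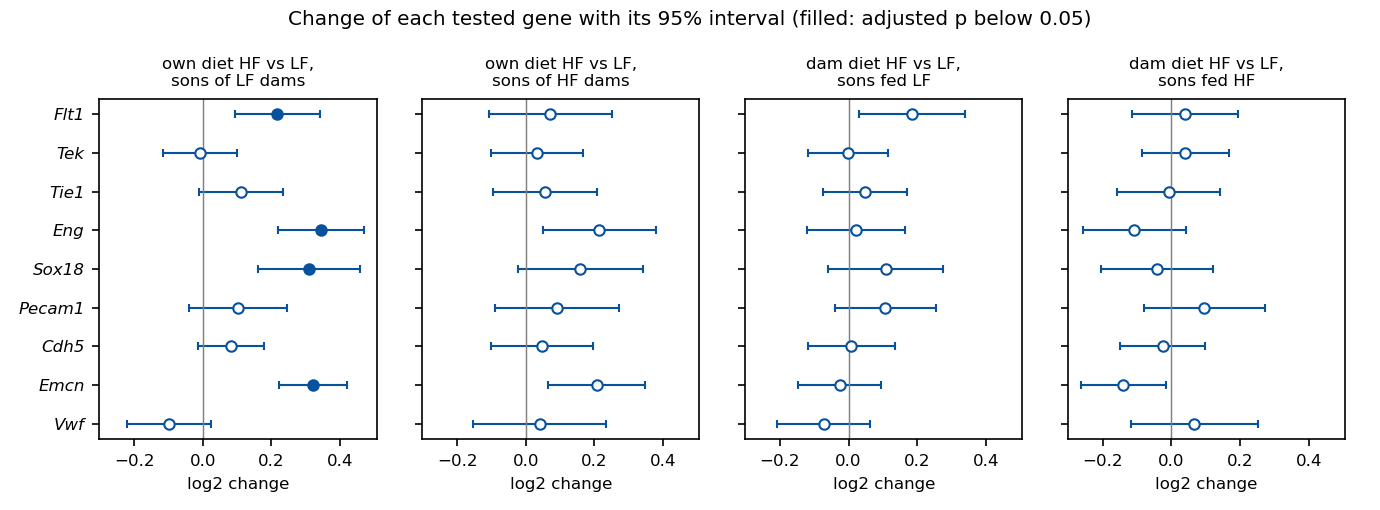
Log2 change (points) with its 95% interval (bars) of the 9 tested genes in the 4 comparisons of 2 groups, with 10 arrays per group and filled points at an adjusted p below 0.05. Filled points are Flt1, Eng, Sox18 and Emcn in sons of LF dams, and no gene in the other 3 comparisons.

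Several measures moved with the same contrast. The slow fibre score, the mean log2 level of 10 slow fibre genes relative to their own mean over the arrays, averaged -0.39 ± 0.96 (SD) in LF-LF and 0.62 ± 0.61 in LF-HF, with a summed intensity of 6523 to 63718.7 and of 17491.9 to 78051.3. All 10 of its tested genes were higher in LF-HF and 3 were called (Atp2a2, Csrp3 and Casq2). With this score as a covariate the change was 0.30 for Emcn (adjusted p = 0.0156), 0.32 for Eng (adjusted p = 0.0413), 0.35 for Sox18 (adjusted p = 0.0596) and 0.19 for Flt1 (adjusted p = 0.243), so that 2 of the 4 kept their call. Later body weight is filed in the labels as the weight at weaning, beside a weight at 3 weeks of age, and from its size it was taken here as the weight near the end of the experiment. It ran from 23.38 to 26.83 g in LF-LF and from 27.2 to 32.6 g in LF-HF. The weights of the groups did not overlap, and body weight and own diet cannot be told apart: with weight as a covariate 0 of the 12467 probes were called, and the change was 0.27 ± 0.10 for Emcn, 0.19 ± 0.13 for Flt1, 0.14 ± 0.12 for Eng and 0.05 ± 0.15 for Sox18.

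Markers of other cells were examined in the same comparison. Of 11 tested genes of mural cells, the smooth muscle cells and pericytes that surround vessels, 9 were higher in LF-HF. Of these 1, the smooth muscle actin gene Acta2, was called (0.44, adjusted p = 0.013). Their summed intensity was 9872.9 to 11917 in LF-LF and 11134.4 to 14089.4 in LF-HF. Most of that sum was Des (means of 6659.61 and 6952.61), which is also 1 of the muscle genes named above, so the sum does not measure mural cells alone. The 5 tested genes of white adipocytes were all lower in LF-HF, 1 of them called, with sums of 4170 to 11171.4 and of 2683.1 to 5456.2. Macrophage genes had 0 of 11 called and sums of 3099.7 to 9536.6 and of 3282 to 19762. Of 4 red blood cell genes 1 was called, the dim Car2 (0.23, limma, adjusted p = 0.0111, intensity 72.9 to 109.1 over all arrays). The sums of the red blood cell genes were 6690 to 18416.3 and 6338.5 to 13572.6. The part of these cells in the change of the endothelial genes was not tested. Without the 3 arrays with high lymphocyte or macrophage genes, the changes were 0.32 for Emcn, 0.33 for Eng, 0.34 for Sox18 and 0.26 for Flt1, all 4 called. These arrays were LF-LF replicates 2 and 5 and LF-HF replicate 6. Scored as the slow fibre genes were, white adipocyte genes were highest in these LF-LF replicates (1.84 and 1.85). They were lowest in LF-HF replicate 6 (-1.13), so this setting removed extremes of adipocyte genes as well.

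Sons of 2 cages of LF dams could be compared within their cage. Their arrays are part of those that gave the calls, so these values are not independent of the calls. In cage 4 (2 HF-fed against 3 LF-fed sons) Eng was higher by 0.43 with HF, Flt1 by 0.38, Sox18 by 0.35 and Emcn by 0.26, and in cage 11 (3 against 2) by 0.27, 0.22, 0.36 and 0.42. All 4 genes were thus higher in the HF-fed sons of both cages. So were Pecam1 (0.26 and 0.14), Cdh5 (0.21 and 0.06) and Tie1 (0.12 and 0.17), which had not passed the test. Tek differed by -0.03 and 0.01 and Vwf by -0.16 and -0.09. Fitted over these 10 arrays with the cage as a term, the changes were 0.34 ± 0.07 for Emcn (adjusted p = 0.0608), 0.36 ± 0.08 for Sox18 (adjusted p = 0.079), 0.35 ± 0.09 for Eng (adjusted p = 0.0942) and 0.30 ± 0.08 for Flt1 (adjusted p = 0.139), and none was called. With 1 value per cage and group, Emcn (limma, adjusted p = 0.0321) and Eng (adjusted p = 0.0434) were called. The LF-LF values came from cages 4, 6, 8 and 11 and the LF-HF values from cages 4, 9, 11 and 14. Cages 4 and 11 gave a value to each group, and the fit took these values as independent.

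**Figure D3:**
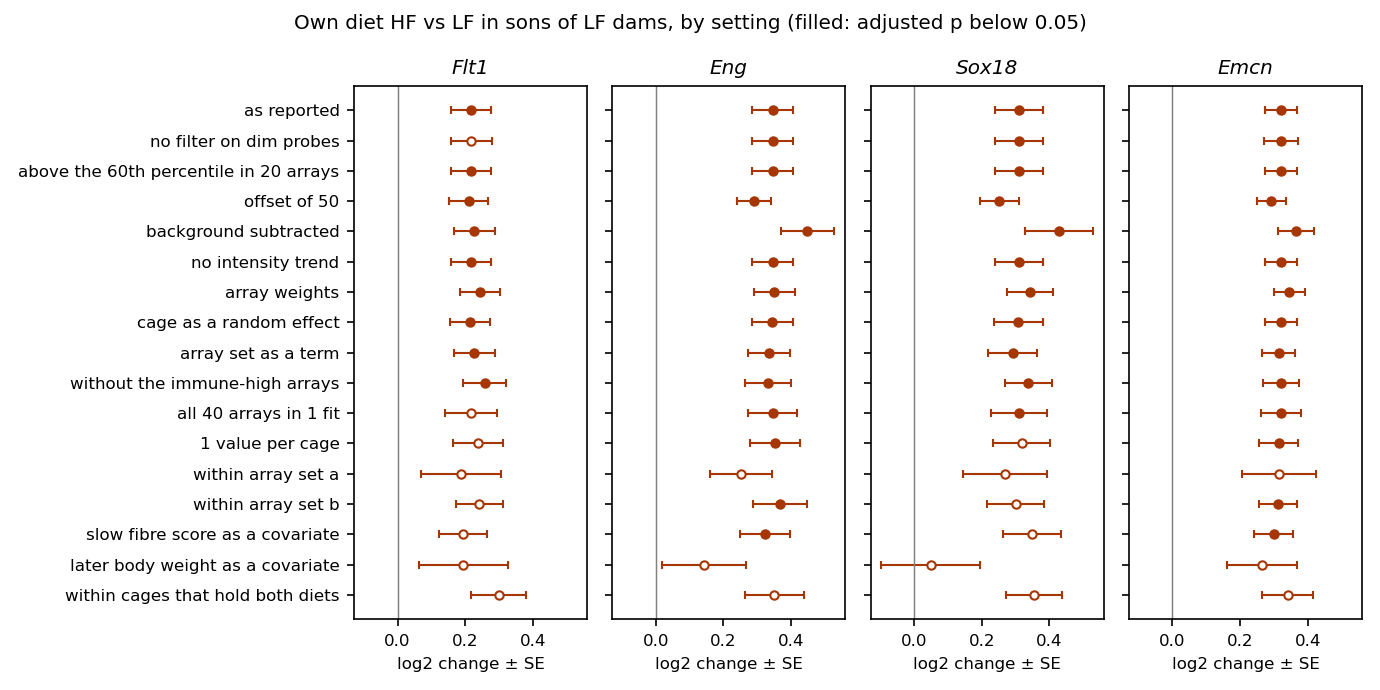
Log2 change ± SE (horizontal axes) of the 4 called genes between LF-HF and LF-LF under each setting of the analysis (vertical axis), filled at an adjusted p below 0.05. The change stays above 0 in every setting shown and is lowest with later body weight as a covariate for Eng (0.14) and Sox18 (0.05).

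In sons of HF dams, HF-HF was compared with HF-LF. None of the 9 genes was called (limma, n = 10 per group), against 0.361% of all probes, and 2 had an unadjusted p below 0.05. All 9 changes were above 0, with a median of 0.07 against 0.00 over all probes, of which 49.9% were above 0. Emcn ran from 351.8 to 522.4 in HF-LF (median 429.6) and from 430.9 to 610.8 in HF-HF (median 494.7), with all 10 HF-HF arrays above the HF-LF mean but 2 above every HF-LF array. Its change was 0.21 ± 0.07 (adjusted p = 0.217, 95% interval 0.06 to 0.35).

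Eng ran from 207.7 to 276.5 in HF-LF and from 230.1 to 372.1 in HF-HF, a change of 0.21 ± 0.08 (limma, n = 10, adjusted p = 0.283, 95% interval 0.05 to 0.38). Sox18, from 152.7 to 268.6 and from 185.4 to 274.8, changed by 0.16 ± 0.09 (adjusted p = 0.513), and Flt1, from 1238.1 to 1921.2 and from 1225.6 to 1918.5, by 0.07 ± 0.09 (adjusted p = 0.809). The groups overlapped for each of these genes. The remaining 5 changed by 0.03 (Tek) to 0.09 (Pecam1). In the 3 cages of HF dams that held both diets, Emcn and Eng were higher in the HF-fed sons of cages 10 (0.30 and 0.57) and 23 (0.25 and 0.39) and lower in those of cage 20 (-0.19 and -0.14), where 3 HF-fed sons faced 1 LF-fed son and all 9 genes were lower.

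Whether the post-weaning effect differed with the diet of the dams was tested as the interaction of both diets over 40 arrays. None of the 9 genes was called and 0% of all 12467 probes were, with 0 of the 9 genes and 647 probes at an unadjusted p below 0.05. The interaction was -0.11 for Emcn (95% interval -0.28 to 0.05), -0.13 for Eng (-0.33 to 0.07), -0.15 for Sox18 (-0.39 to 0.08) and -0.15 for Flt1 (-0.36 to 0.07), with adjusted p-values between 0.908 and 0.909 (limma, n = 10 per group). A smaller effect in sons of HF dams was therefore not shown for any of these genes, and the intervals allow for none as well as for one as large as most or all of the change seen in sons of LF dams.

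Averaged over both diets of the dams, with 20 arrays on each own diet, 3 of the 9 genes were called and all 3 were higher in HF-fed sons, against 7.88% of all probes called and 4.51% called higher. Emcn rose by 0.26 ± 0.04 (limma, adjusted p = 4.81e-05), Eng by 0.28 ± 0.05 (adjusted p = 0.000301) and Sox18 by 0.23 ± 0.06 (adjusted p = 0.00781). Flt1 changed by 0.14 ± 0.05 (adjusted p = 0.0924) and was called when HF-LF replicate 8 or HF-HF replicate 8 was left out. Tek changed by 0.01 and Vwf by -0.03. This average holds the same arrays as the comparisons above and is not independent of them.

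The maternal effect compared sons on the same diet whose dams had eaten different diets, and these comparisons share their groups with those of the post-weaning diet. In sons fed LF, 0 of the 9 genes were called, against 0.016% of all probes. Flt1 was 0.19 ± 0.07 higher in HF-LF than in LF-LF (limma, n = 10, unadjusted p = 0.0203, adjusted p = 0.561), and its second probe 0.13 ± 0.05 (unadjusted p = 0.0152, adjusted p = 0.549), the other 8 genes differing by -0.07 (Vwf) to 0.11 (Sox18). For Flt1 the groups overlapped, with 8 of 10 HF-LF arrays above the LF-LF mean. In sons fed HF, 0 of 9 genes and 0% of probes were called (903 probes had an unadjusted p below 0.05, and 1024 in sons fed LF). Here Emcn was 0.14 ± 0.06 lower in HF-HF than in LF-HF, in 9 of 10 arrays below the LF-HF mean (unadjusted p = 0.0277, adjusted p = 0.61).

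Averaged over both own diets, the dams' diet changed none of the 9 genes past the threshold, against 0.61% of all probes called. Flt1 differed by 0.11 ± 0.05 (limma, adjusted p = 0.474, 95% interval 0.00 to 0.22) and Emcn by -0.08 ± 0.04 (adjusted p = 0.503, 95% interval -0.17 to 0.00). For the 7 other genes the difference lay between -0.04 (Eng) and 0.10 (Pecam1).

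Binding partners and related genes were followed in the same comparisons, from lists compiled for this tissue. Of the ligands, Vegfa, which activates the receptor encoded by Kdr, rose in LF-HF against LF-LF by 0.28 ± 0.08 (limma, adjusted p = 0.0413), from a mean of 1684.67 ± 168.50 (SD, n = 10) to 2052.13 ± 311.54. Vegfb, a ligand of the Flt1 receptor linked to fatty acid handling of the endothelium, changed by 0.18 ± 0.05 (adjusted p = 0.0622) and rose in the average over both dams (0.21 ± 0.06, adjusted p = 0.0117). Of the angiopoietins, Angpt1 changed by 0.13 ± 0.05 (adjusted p = 0.205) and Angpt2 by -0.04 ± 0.06 (adjusted p = 0.768). The co-receptor Nrp1 changed by 0.14 ± 0.07 (adjusted p = 0.301) and the phosphatase of the Tek receptor, Ptprb, by -0.01 ± 0.10 (adjusted p = 0.977). Pgf, the third ligand of Flt1, and Acvrl1 and Gdf2, the receptor and ligand partners of endoglin, lay above the array median in 8, 5 and 0 of 40 arrays and were not tested.

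Among 20 other tested markers of endothelium, 2 were called higher in sons of LF dams and 0 lower, with 16 above 0 and a median of 0.05. They were Arhgef15, an exchange factor of endothelial cells (0.29 ± 0.06, adjusted p = 0.00455), and Podxl, a surface sialomucin (0.19 ± 0.05, adjusted p = 0.0494). Their summed intensity was 7848.2 to 9567.3 in LF-LF and 8219.3 to 10154.5 in LF-HF, ranges that overlapped widely. In sons of HF dams 0 of 20 were called, with 15 above 0 and a median of 0.09, and in the average over both dams Arhgef15 (0.22) and Egfl7 (0.19, adjusted p = 0.0126) were called. With 2 of 20 called higher, the share in these other markers lay above the 2.4% of all probes but below that of the 9 genes, and the difference was not tested. Both the 9 genes and this list were chosen with earlier results of these data known, so the shares only describe them.

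Genes of the endoglin and bone morphogenetic protein pathway had 2 of 14 called higher in sons of LF dams and 0 lower, with a median of 0.01. These were Id1, a target of this pathway (0.33 ± 0.06, limma, adjusted p = 0.0035), and Tmem100, an endothelial membrane protein that the pathway induces (0.50 ± 0.12, adjusted p = 0.0234), with means of 169.75 against 212.92 and of 790.99 against 1114.79. In sons of HF dams 0 of these 14 genes were called, with 6 above 0 and a median of -0.01. Id1 and Tmem100 were called in the average over both dams (0.21, adjusted p = 0.0279, and 0.45, adjusted p = 0.00107). That average holds the arrays of sons of LF dams and is not independent of their calls. Of 17 endothelial transcription factors 1 was called, Sox7, which belongs with Sox18 to the SOXF family (0.32 ± 0.08, adjusted p = 0.0227), and the median of the list was 0.00. Vegfa was the only call among 14 genes of the VEGF and angiopoietin pathway (median 0.10). Among 8 tested genes of capillary fat and water handling and 9 of the Notch pathway 0 were called, with medians of 0.07 and 0.03. Cd36, Fabp4, Fabp5 and Slc27a4 of the fat handling list lay above the array median in 16, 12, 1 and 11 of 40 arrays. They were not tested, so the list leaves them out.

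In the average over both dams, where the share of all probes called was 7.88% and that called higher 4.51%, both larger than in sons of LF dams, the endoglin list had 2 of 14 called as before. Capillary fat handling had 2 of 8 called higher (Tcf15, 0.24, adjusted p = 0.00563, and Slc27a3, 0.11, adjusted p = 0.0428) and the VEGF list 3 of 14 (Vegfb, Ppargc1a, 0.21, adjusted p = 0.0276, and Epas1, 0.13, adjusted p = 0.0455), without Vegfa, which was not called here (0.20, adjusted p = 0.0591). Tcf15 encodes a transcription factor of capillary endothelium in heart and muscle, Slc27a3 a fatty acid transporter family member, Ppargc1a the coactivator PGC-1alpha and Epas1 the hypoxia factor HIF-2alpha. Of the transcription factors, Sox7 and Elk3 (0.10, limma, adjusted p = 0.0246) were called, and of the Notch genes Hes1 (0.17, adjusted p = 0.0472). Slc27a3 and Elk3 were dim, with 70.7 to 102.3 and 69.2 to 97.3 over all arrays, near the median of all probes. For the diet of the dams, the only call in these lists was Foxo1, which was 0.46 ± 0.09 higher in sons of HF dams (adjusted p = 0.00703, average over both own diets), a gene that muscle fibres express as well.

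Within groups, the 9 genes varied together. After each group's mean was subtracted, 34 of the 36 pairs correlated above 0 over the 40 arrays. The median Pearson's r was 0.40 (0.45 when array sets were centred as well, and 0.34 by Spearman's rank correlation). The median Pearson's r was 0.00 for pairs within a random sample of tested probes. These values are given as a description since the arrays were normalised together. Cdh5 with Tie1 (r = 0.69) and Flt1 with Tek (r = 0.67) were the most alike. Against the mean of the other 8 genes, r was 0.77 for Pecam1, 0.72 for Tie1 and 0.69 for Cdh5, and 0.14 for Vwf, whose correlation with Flt1 was -0.24. By Spearman's rank correlation, which single bright arrays affect less, the values against the other 8 genes were 0.71, 0.58, 0.48 and 0.04. Among the 6 pairs of the 4 genes that rose, r ran from 0.24 for Eng with Emcn to 0.47 for Eng with Flt1.

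**Figure D4:**
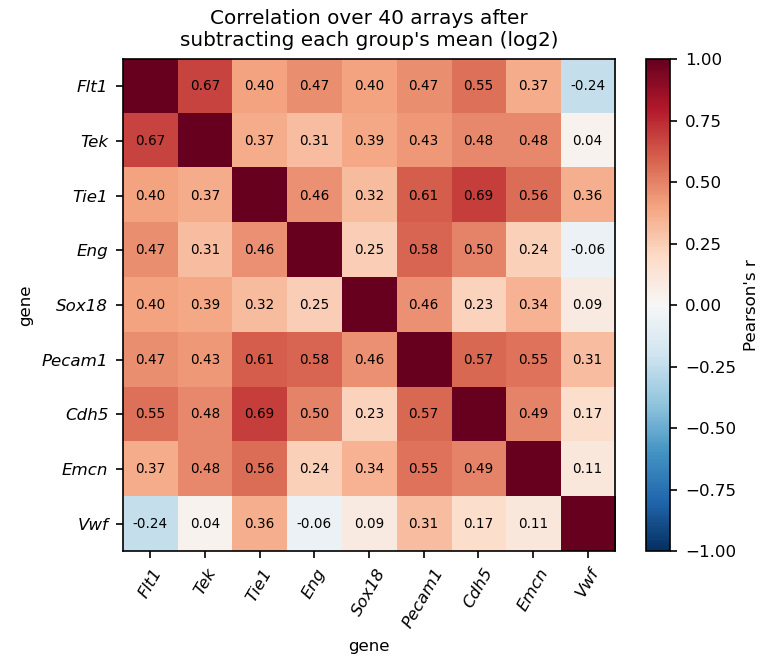
Pearson's r between the log2 intensities of each pair of the 9 tested genes (both axes) over 40 arrays after subtraction of each group's mean, by colour and number. Vwf has the lowest values (-0.24 with Flt1), and the highest is that of Cdh5 with Tie1 (0.69).

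The 8 genes outside these 10 whose pattern was most like the mean of the 9 tested genes, over the same 40 group-centred arrays and among 8687 genes, were Esam (r = 0.80), Egfl7 (0.75), Xdh (0.75), Adgrl4 (0.74), Abcd3 (0.74), Lemd2 (0.72), Oas2 (0.71) and Arap3 (0.71). By Spearman's rank correlation the values of these genes were, in the same order, 0.73, 0.53, 0.76, 0.78, 0.72, 0.66, 0.76 and 0.63. Esam, Egfl7 and Adgrl4 are known endothelial genes and were in the list of other endothelial markers. Esam encodes an adhesion molecule of endothelial junctions, and it did not pass the test for diet, with means of 884.34 in LF-LF, 903.17 in LF-HF, 944.88 in HF-LF and 949.37 in HF-HF.

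Slopes on measures of the animals were fitted within groups over all 40 arrays. On the slow fibre score 0 of the 9 genes were called, against 2.05% of all probes, and Flt1 had the largest slope with 0.09 ± 0.03 per unit of score (limma, adjusted p = 0.145). Emcn, which rose with the sons' own diet, had a slope of -0.01 ± 0.03 and Sox18 one of 0.01 ± 0.04. On later body weight 0 of 9 genes and 0% of probes were called, with 1 gene and 525 probes at an unadjusted p below 0.05: Sox18 had a slope of 0.06 ± 0.02 per g, rank 5 of all probes by unadjusted p (0.000617, adjusted p = 0.978). On blood glucose 0 of 9 genes and 0% of probes were called, with 0 genes and 604 probes at an unadjusted p below 0.05.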

How the data were processed

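The authors hybridised RNA of each muscle to an Illumina MouseRef-8 v2.0 array, processed it in BeadStudio (version not given in the sources used here) and deposited quantile-normalised intensity values of 40 arrays. The deposited intensities were converted to log2 values here without an offset. Symbols of genes were those of the platform, brought up to date by gene identifier (23978 probes with 1 symbol, 1719 with none). A gene's brightest probe on average represented it. Comparisons of 2 groups were fitted on their 20 arrays, and interaction, averages and slopes on all 40, with limma 3.58.1 in R 4.3.3 (lmFit, eBayes with an intensity trend), tested on simulated data. P-values are two-sided, adjusted by Benjamini-Hochberg over 12467 probes and called below 0.05, after the study's filter on expression in at least 20 arrays, here the array median. Replicate numbers only name animals. P-values treat cagemates as independent. The precision is limited by 10 arrays per group. The table had 0 further columns of sample values. The 10 genes and all lists were chosen with earlier results of these data known. From other lists some of the called genes were named, at most 6 per list, and the binding partners whatever their values. Called genes of the fast fibre and muscle lists, and some of the other lists, were not named. Groups of 10 were given by lowest, median and highest array. Other tissues of the study were not used here. Figures used Python 3.11.15 with matplotlib 3.10.9.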

Additional observations from a re-analysis of the deposited data

Results flagged for a closer look

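In 5 of 48 combinations of a probe and a group of 10 arrays, 1 array lay apart from the others by more than Dixon's 95% critical value for the gap relative to the range, where chance gives about 1 in 20. Vwf was 366.5 in HF-LF replicate 7, with the next array at 296 and the lowest at 235.4; without it the difference between dams in sons fed LF was -0.12 (limma, adjusted p = 0.507). Pecam1 was 507 in HF-HF replicate 1, with the next array at 383.2, and its second probe was 159.3 in LF-HF replicate 10, with the next at 137.8. Without HF-HF replicate 1, Pecam1 changed by 0.04 with own diet in sons of HF dams (limma, adjusted p = 0.895). Cdh5 was 209.5 in HF-LF replicate 8, with the next at 172.2; without it the change with own diet in sons of HF dams was 0.09 (adjusted p = 0.621). Kdr was 75.6 in LF-LF replicate 1, with the next at 68.7, in a probe that was not tested. The 4 genes called in sons of LF dams were not among them.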

How the results depend on the processing

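By replicate number, no paired analysis was possible because the numbers only name animals in accession order, whereas cages that held sons of both diets tied some sons across groups and were fitted as a term. For own diet in sons of LF dams, 4 genes (521 probes in all) were called, and 4 with the stricter filter, the offset of 50, background subtraction, no intensity trend, array weights, cage as a random effect, the array set as a term or without the immune-high arrays. Without the filter (319 probes) and with all 40 arrays in 1 fit it was 3. It was 2 with 1 value per cage (149 probes), within array set b (104) and with the slow fibre score as a covariate (90), and 0 within array set a (2), with later body weight as a covariate (0) and within cages that hold both diets (108). In these settings fewer arrays or added terms were fitted. Leaving out 1 array gave 3 to 4 genes, and 1 cage 2 to 4, with as few as 59 probes without cage 11, 146 without cage 4 and 337 without LF-LF replicate 4. For own diet averaged over both dams, 3 genes became 4 with array weights and 3 to 4 without 1 array. The slope on the slow fibre score had 0 calls and 1 (Flt1) with array weights, the cause of which was not tested. All other counts of the 9 genes stayed at 0 in every setting run and with each array or cage left out (0 to 0).

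None of the single values that changed sign was called. In sons of LF dams these were Tek with array weights (0.0082), the array set as a term (0.0083), within set a (0.038) and with the slow fibre score (0.018), Vwf within set a (0.063) and Pecam1 with body weight (-0.23). In sons of HF dams they were Vwf within set a (-0.0036) and, with body weight, Flt1 (-0.17), Sox18 (-0.33) and Tek (-0.073). Between dams in sons fed LF they were, with the array set as a term, Eng (-0.023), Cdh5 (-0.036), Tek (0.0075) and Tie1 (-0.00014), and without the immune-high arrays Cdh5 (-0.0078) and Tek (0.010). Within set a they were Eng (-0.0348), Emcn (0.00032), Tek (0.097), Tie1 (-0.0352) and Vwf (0.018), within set b Eng (-0.016), Pecam1 (-0.051) and Cdh5 (-0.066), with 1 value per cage Tek (0.0141), and with body weight Emcn (0.0052) and Tek (0.036). In sons fed HF they were Cdh5 (0.0143) and Tie1 (0.028) with 1 value per cage, Cdh5 (0.0158) and Vwf (-0.048) within set a, Sox18 within set b (0.052) and Sox18 with the slow fibre score (0.0044). The cause was not tested. For arrays the signal over background limits Kdr, Pgf, Acvrl1 and Gdf2, and background that was not subtracted compresses dim probes, as shown by the change of Eng in sons of LF dams, 0.35 as given and 0.45 with background subtracted.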
